A study of Mus musculus with 7 samples.

Results

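The levels of 5 miRNA products were followed across small RNA libraries of mouse hippocampus, namely mmu-miR-204 and mmu-miR-204* from the 2 arms of a hairpin in Trpm3, mmu-miR-211 from a hairpin in Trpm1, and mmu-miR-448-3p and mmu-miR-1298 from 2 hairpins in Htr2c, written below without the prefix for mouse. They were chosen by name for their host genes, as a group named after the choroid plexus, and they are 5 of the 756 mature miRNA sequences measured. Of these, 4 were among the 476 sequences with a mean of at least 10 reads, on which tests were run, and miR-211 was not. The libraries came from pooled hippocampi of adult male C57BL/6 mice of 3 to 5 months. The labels name 1 library of untrained wildtype mice (non-trained control, library 1), 1 of untrained NIPP1* mice (non-trained NIPP1*, library 2), 3 of trained wildtype mice (trained control, libraries 3, 4 and 5) and 2 of trained NIPP1* mice (trained NIPP1*, libraries 6 and 7).

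NIPP1* is the PP1-binding part of a nuclear inhibitor of protein phosphatase 1, fused to EGFP behind a tetO promoter and switched on by a doxycycline-dependent transactivator. The transactivator is driven by the CaMKIIalpha promoter, which acts in forebrain neurons, and the methods describe a doxycycline diet of 8 days and control littermates. Trained mice were trained on an object recognition task, and non-trained mice were placed in the training chamber alone. Hippocampi were pooled from 6 mice per group, collected 30 min after training. How the mice were divided among libraries is not stated, so that p-values measure the spread between these libraries, which may be partly technical. Each library held between 7285260 and 10017800 miRNA reads, so that 1 read was worth 0.0998 to 0.137 reads per 1000000 miRNA reads (RPM). The summed level of 5 miRNAs of forebrain neurons lay between 188736 and 216280 RPM.

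The choroid plexus is a folded epithelium in the brain ventricles that secretes cerebrospinal fluid, and one of its sheets lies beside the hippocampus in the lateral ventricle. Its epithelial cells express Htr2c, the serotonin 2C receptor, and Trpm3, a cation channel of the melastatin family, at high levels. Trpm1 is the related channel of retinal bipolar cells and pigment cells. A miRNA in an intron can be cut from the transcript of its host gene, and the Drosha and Dicer enzymes release a duplex of which one arm is usually kept and the other, written with an asterisk, is mostly degraded.

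The mature sequences are shown because miR-204 and miR-211 can be told apart at a single base, and because the seed (bases 2 to 8, in capitals) largely sets which messages a miRNA pairs with. They are those of RefSeq (GRCm38.p6), written 5′ to 3′, and each equals the sequence at its mm9 locus.
miR-204: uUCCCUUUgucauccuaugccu
miR-211: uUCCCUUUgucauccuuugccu
miR-204*: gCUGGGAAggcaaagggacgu
miR-448-3p: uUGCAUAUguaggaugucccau
miR-1298: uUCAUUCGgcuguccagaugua
miR-448-5p: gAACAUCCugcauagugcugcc
miR-1298*: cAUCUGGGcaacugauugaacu
miR-1264-3p: cAAAUCUUauuugagcaccugu
miR-1912: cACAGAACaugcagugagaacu

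miR-204 and miR-211 shared the seed UCCCUUU, which no other of the 654 measured products with a RefSeq sequence carried. They had 21 bases in common and differed by 1 substitution, A17U, counted from the 5′ end with the base of miR-204 first. Each of the other products listed had a seed that was found in 1 measured product only. How many mismatches the mapping allowed is not given in the sources used here.

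All of these products were intronic and on the strand of their host (mm9). miR-204 was at chr19:22825100-22825121 and miR-204* at chr19:22825139-22825159, both in intron 6 of the Trpm3 transcript with 27 exons, 611.5 kb from the start of a gene of 850.8 kb. miR-211 was at chr7:71350717-71350738, in intron 6 of Trpm1. miR-1298 was at chrX:143499461-143499482, in intron 3 of Htr2c and 102.4 kb from the start of the gene. miR-448-3p was at chrX:143592824-143592845, in intron 5 and 195.8 kb from the start. Another 3 hairpins lay in intron 3 of Htr2c, at 39.8 kb (miR-764-3p), 47.0 kb (miR-1912) and 48.1 kb (miR-1264-3p).

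**Figure D1:**
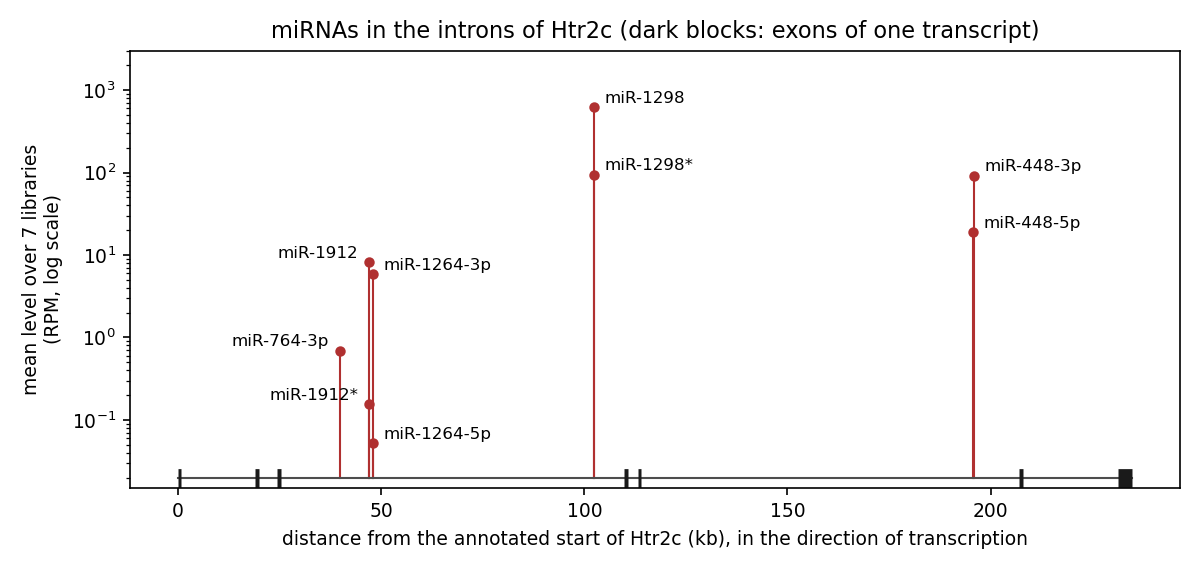
Position of the Htr2c-hosted miRNAs (distance from the gene start in kb, horizontal axis) against their mean level over the 7 libraries (RPM, log axis); each point is 1 product and dark blocks are exons of one transcript. miR-1298 was the most abundant at 627 RPM, and miR-1912 and miR-1264-3p of the same intron were at 8.22 and 5.86 RPM.

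The trained groups carry a limit that touches each comparison of them. In the authors' deposited comparison of trained control with trained NIPP1* mice, the group means were recomputed for 8 of these products. The relative error, as a root mean square, was 24.28% with the labelled libraries and 0.03365% when libraries 6 and 7 were taken as trained control and libraries 3, 4 and 5 as trained NIPP1*. The transgene is not read by small RNA sequencing, and which assignment is right cannot be told from the data. The labels are followed here, and the values under the exchanged assignment are given beside the results that they turn.

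miR-204 had a mean of 684 RPM and rank 79 among the measured sequences. It was above miR-1298 in libraries 2, 4, 5 and 7 and below it in libraries 1, 3 and 6. It stood at 591.3 RPM in the non-trained control library and 796.1 RPM in the non-trained NIPP1* library. The trained control libraries held 1154, 492.7 and 400.1 RPM, and the trained NIPP1* libraries 871.6 and 480.7 RPM. The highest and the lowest of all 7 libraries were thus replicates of one labelled group, and the values of the trained groups overlapped with each other and with both non-trained libraries. The means were 682 ± 411 RPM (SD, n = 3) in trained control and 676 ± 276 RPM (SD, n = 2) in trained NIPP1* mice.

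miR-1298 had a mean of 627 RPM and rank 82. Its level was 646.9 RPM in library 1 and 735.7 RPM in library 2. In the trained control libraries it was 1348, 335.8 and 135.7 RPM, and in the trained NIPP1* libraries 963.7 and 223.2 RPM. Library 3 again stood highest and library 5 lowest. The trained control mean of 606.5 RPM had an SD of 650 (n = 3), which is larger than the mean itself, and the trained NIPP1* mean was 593 ± 524 RPM (SD, n = 2).

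miR-448-3p, from the last of the Htr2c hairpins, had a mean of 91.9 RPM and rank 189. It was at 100.5 RPM in library 1 and at 114.7 RPM in library 2. The trained control libraries held 191.6, 44.06 and 17.52 RPM, and the trained NIPP1* libraries 131.5 and 43.52 RPM. The spread within both trained groups exceeded the distance between their means, which were 84.4 ± 93.8 RPM (SD, n = 3) and 87.5 ± 62.2 RPM (SD, n = 2).

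miR-204*, the opposite arm of the miR-204 hairpin, had a mean of 17.99 RPM and rank 295. The non-trained control library held 17.1 RPM and the non-trained NIPP1* library 23.04 RPM. The trained control libraries held 23.53, 22.03 and 16.24 RPM and the trained NIPP1* libraries 16.61 and 7.39 RPM. Library 7 was the lowest, on 74 reads, and 16.24 to 23.53 RPM were measured in the remaining 6.

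miR-211 was at the edge of detection, with 1 read in library 1, 2 reads in each of libraries 2, 3, 5, 6 and 7, and 0 reads in library 4, where a count of 0 allows up to 0.359 RPM. No fold change or test is given for it. In the same libraries miR-204 had between 3128 and 9463 reads. The product hosted by Trpm1 was therefore barely detected, and the other 4 were read in all 7 libraries.

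**Figure D2:**
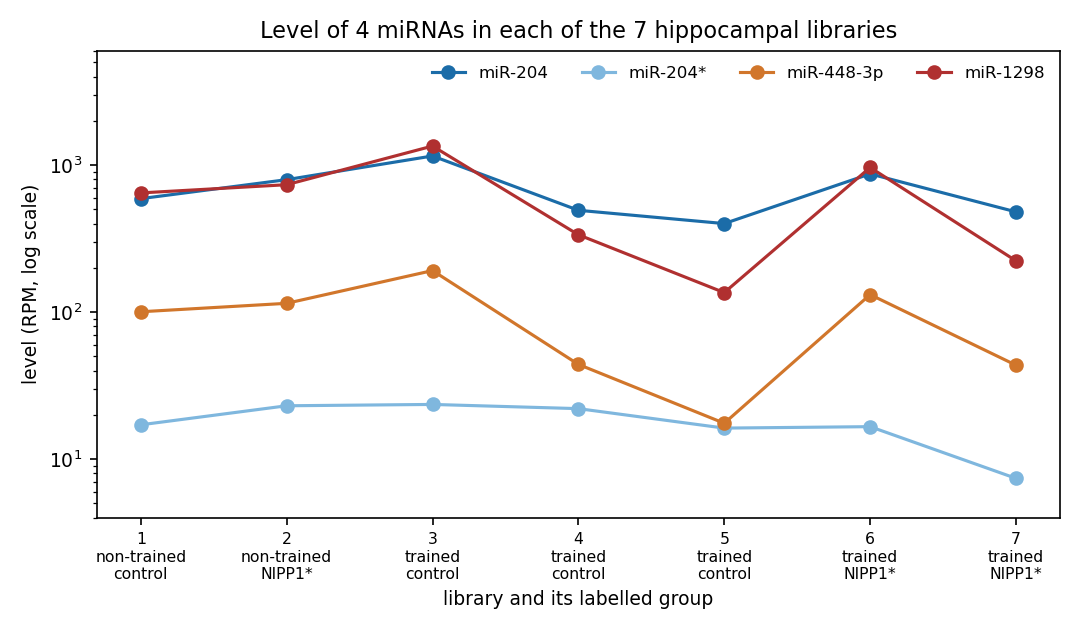
Level of miR-204, miR-204*, miR-448-3p and miR-1298 (RPM, log axis) in each library, ordered by its labelled group; each point is 1 library, and miR-211 is not drawn. The curves of miR-204, miR-448-3p and miR-1298 peak in library 3 (1154, 191.6 and 1348 RPM) and are lowest in library 5 (400.1, 17.52 and 135.7 RPM), while miR-204* is lowest in library 7 at 7.39 RPM.

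miR-204, miR-448-3p and miR-1298 ranked the 7 libraries in one and the same order, namely 3, 6, 2, 1, 4, 7 and 5 from high to low. The order put a trained control library at each end and kept the non-trained libraries in between, so it followed neither training nor genotype as labelled. Over the 7 libraries, the log2 levels of miR-448-3p and miR-1298 had a Pearson r of 0.99, those of miR-204 and miR-1298 one of 0.95 and those of miR-204 and miR-448-3p one of 0.94. miR-204* had an r of 0.49 with miR-204, 0.41 with miR-448-3p and 0.53 with miR-1298. These correlations are descriptions over 7 libraries that share RNA and depth for all products, and miR-448-3p and miR-1298 also share a host gene.

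The distance between the highest and the lowest library was large beside that of other miRNAs. miR-448-3p differed 10.9-fold between library 3 and library 5, with an exact 95% interval of 9.18 to 13.1, and miR-1298 differed 9.93-fold (9.32 to 10.6). miR-204 differed 2.88-fold between the same libraries (2.77 to 3.00), and miR-204* 3.18-fold between libraries 3 and 7 (2.42 to 4.22). These exact intervals, like the other exact intervals and the floors given here, cover the error of counting and nothing else, as reads copied by PCR are not separate molecules. Over the 476 tested sequences the median distance was 1.56-fold and the 95th percentile 3.20-fold. miR-448-3p had the fifth widest distance and miR-1298 the seventh, and 92.2% of the tested sequences had a smaller one than miR-204. The distances were also wide within groups, where the residual SD on the log2 scale was 1.55 for miR-448-3p, 1.61 for miR-1298, 0.75 for miR-204 and 0.51 for miR-204*, against a median of 0.20 over all tested sequences.

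Together the 5 products took between 0.0570% of the miRNA reads in library 5 and 0.272% in library 3. In a bulk sample, fewer cells of a type and less RNA per cell cannot be told apart. Which cells the reads of these products came from was not tested. The ratio of miR-1298 to miR-448-3p, from a shared host, stayed between 5.13 and 7.75 over the 7 libraries. The ratio of miR-1298 to miR-204, from different hosts, ran from 0.339 in library 5 to 1.17 in library 3. Products of a shared host did not all keep a steady ratio. miR-1298* took 8.77% of the reads of both arms of its hairpin in library 3 and 26.5% in library 7.

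Other products of the Htr2c hairpins were measured beside them, and 4 of these 7 passed the filter on low values. miR-1298* was at 113.3 and 104.8 RPM in the non-trained libraries, at 129.5, 69.44 and 41.31 RPM in trained control and at 121.2 and 80.36 RPM in trained NIPP1* libraries. miR-1912 ran from 2.30 RPM in library 5 to 15.97 RPM in library 3, and miR-1264-3p from 1.66 to 9.39 RPM in the same libraries. miR-448-5p lay between 10.49 RPM in library 5 and 23.62 RPM in library 1. All 4 were thus lowest in library 5, as miR-448-3p and miR-1298 were, and miR-1264-3p ranked all libraries in their order. miR-764-3p had between 0 and 11 reads, miR-1912* between 0 and 4 and miR-1264-5p at most 1.

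The 5 products themselves, whose r with each other is given above, were left out when the most alike miRNAs were sought. By the likeness of log2 levels over the 7 libraries, those closest to miR-448-3p were miR-1264-3p (r = 0.99), miR-1912 (0.98) and miR-1298* (0.98), all products of Htr2c. Those closest to miR-1298 were miR-1912 (0.98), miR-1264-3p (0.97) and miR-34b-5p (0.94). Those closest to miR-204 were miR-34b-3p (0.98), miR-1912 (0.95) and miR-34b-5p (0.93). miR-204* was closest to miR-149-5p (0.82), miR-375-3p (0.81) and miR-3085-5p (0.77), none of which is hosted by Htr2c. Each r rests on 7 libraries and is the highest of many, so it is a description.

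**Figure D3:**
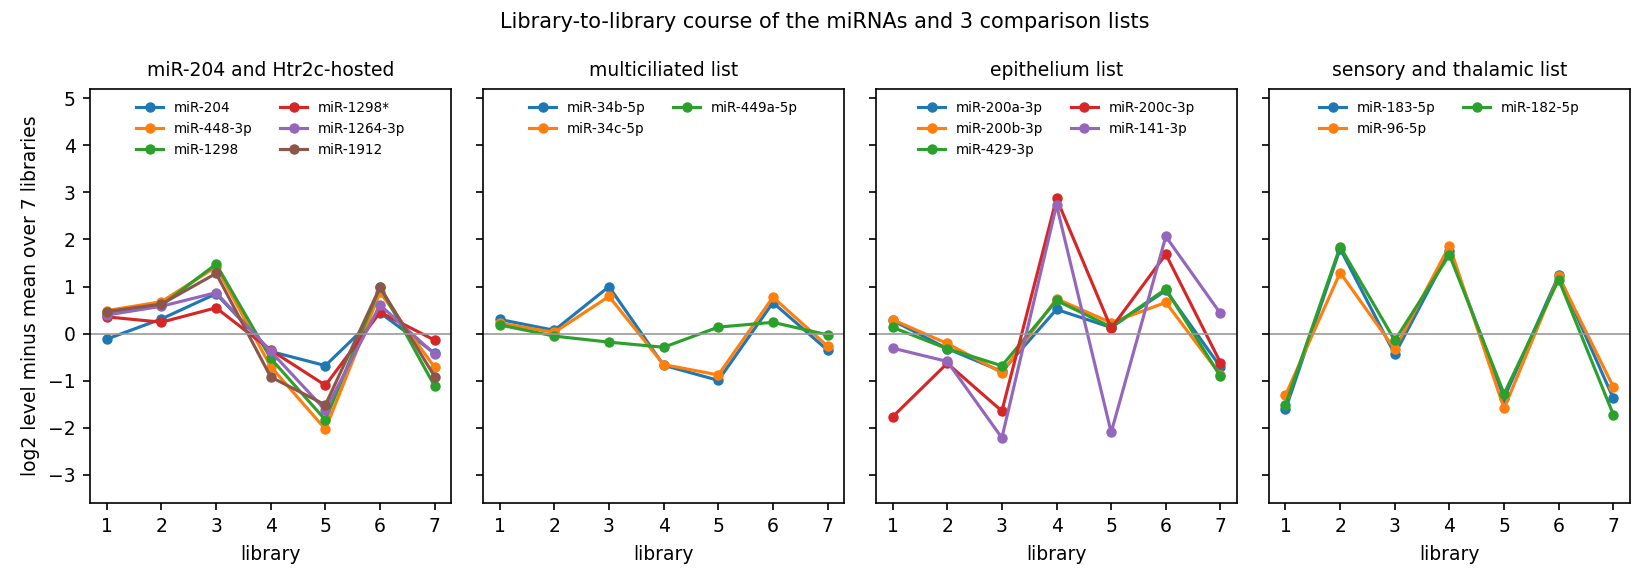
log2 level minus its mean over the 7 libraries (vertical axis) by library (horizontal axis) for miR-204 with 5 Htr2c-hosted products and for 3 lists of markers; each line is 1 miRNA. The 6 miRNAs of the first panel (miR-204, miR-448-3p, miR-1298, miR-1298*, miR-1264-3p and miR-1912) and miR-34b-5p and miR-34c-5p of the second peak in library 3 and dip in library 5, whereas the miR-200 and miR-183 clusters follow other courses.

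Markers of other cells were set beside this course, as sums over each list. In the list of multiciliated epithelium, 4 of 5 miRNAs were measured, and their sum ran from 650 RPM in library 5 to 2151 RPM in library 3. It rested on miR-34c-5p, at 1111 and 969.3 RPM in the non-trained libraries, 1648, 602.9 and 517.6 RPM in trained control and 1628 and 790.5 RPM in trained NIPP1* libraries, and on miR-34b-5p. The list did not move as a whole, since miR-449a-5p, a defining miRNA of multiciliated cells, stayed between 5.99 and 8.65 RPM and miR-449c-5p between 0 and 0.37 RPM. The part of these cells in the course of miR-204, miR-448-3p and miR-1298 was not tested.

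The 5 miRNAs of the miR-200 family, which mark epithelia, summed to 112 RPM in library 3, their lowest value, where miR-204, miR-448-3p and miR-1298 were at their highest. Their highest sum was 356 RPM in library 6. miR-183, miR-96 and miR-182, known from sensory organs, summed to between 25.2 RPM in library 1 and 259 RPM in library 2. These libraries are neighbours in the order shared by miR-204, miR-448-3p and miR-1298. The sums of the lists for oligodendrocytes, blood vessels, leukocytes and microglia, pituitary, hindbrain and forebrain neurons differed 1.15- to 1.89-fold between libraries. The sum for blood vessels was highest in libraries 5, 4 and 7, where miR-204, miR-448-3p and miR-1298 were lowest, and its members went different ways. miR-143-3p ran from 8707 RPM in library 1 to 12880 RPM in library 5 (r = -0.74 with miR-204 and -0.83 with miR-1298), whereas miR-126a-3p ran from 4252 RPM in library 4 to 5030 RPM in library 3 (r = 0.86 and 0.85). The part of vascular cells in the course was not tested. Members of the forebrain neuron list also went different ways. miR-9-5p ran from 107500 RPM in library 5 to 149800 RPM in library 1 (r = 0.61 with miR-204 and 0.73 with miR-1298). miR-128-3p ran from 53960 RPM in library 1 to 71940 RPM in library 5 (r = -0.28 and -0.47). The other members of that list had r from -0.19 to 0.41, and the part of neurons was not tested. The sum for blood differed 4.07-fold and was highest in library 7, at 250 RPM.

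Base composition also differed between libraries. The median log2 deviation of 81 miRNAs with under 40% GC was lowest in library 5 at -0.27 and highest in library 1 at 0.19, and that of 126 miRNAs with at least 55% GC ran from -0.14 in library 3 to 0.19 in library 4. miR-204 and miR-1298 have 45.5% GC, miR-448-3p has 40.9% and miR-204* has 61.9%. The part of base composition in the course of these miRNAs was not tested. Library 3 held 8200600 reads and library 5 held 7818000, and the part of depth was not tested.

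The 2 arms of a hairpin were compared within each library, where the library total cancels. miR-204* was 2.81% of the reads of both arms in library 1 (exact 95% interval 2.39 to 3.29) and 2.81% in library 2 (2.43 to 3.24). It was 1.999%, 4.28% and 3.902% in the trained control libraries and 1.87% and 1.51% in the trained NIPP1* libraries. The trained control shares were the higher by the labels, and the trained NIPP1* shares would be with the trained groups exchanged. The interval of library 6 (1.55 to 2.23) overlapped that of library 3 (1.73 to 2.30).

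The less abundant arms of the Htr2c hairpins took a larger share. miR-1298* was 8.77% of both arms in library 3 (8.27 to 9.28) and 26.5% in library 7 (24.9 to 28.1), with a median of 14.9%. miR-448-5p was 10.8% in library 3 (9.43 to 12.4) and 37.4% in library 5 (31.0 to 44.2), with a median of 19.02%. The arms of one hairpin therefore did not move by equal factors, since miR-448-5p differed 2.25-fold between its highest and lowest library and miR-448-3p 10.9-fold, and miR-1298* 3.13-fold against 9.93-fold for miR-1298. GC content was 54.5% for miR-448-5p and 40.9% for miR-448-3p, and 45.5% for both arms of miR-1298. The part of base composition in the arm shares was not tested.

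**Figure D4:**
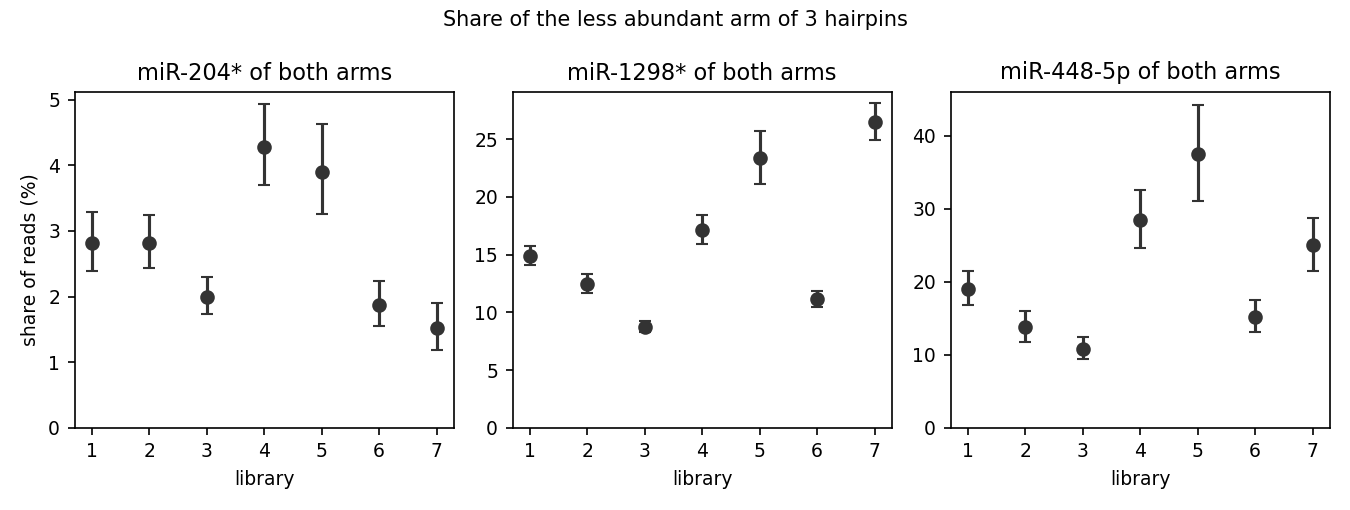
Share of the less abundant arm in the reads of both arms (%, vertical axis) by library for the hairpins of miR-204, miR-1298 and miR-448; points are libraries and bars are exact 95% intervals. For the 2 Htr2c hairpins the share is lowest in library 3 (8.77% and 10.8%) and highest in library 7 (26.5%) or library 5 (37.4%).

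The question of the design is whether training or NIPP1* alters these miRNAs, and no group difference of the 4 tested products passed the adjusted threshold. Fold changes are log2 differences on the log2(RPM + 0.5) scale, which understates the change of low miRNAs, and p-values are those of limma with Benjamini-Hochberg adjustment over the 476 tested sequences. The non-trained groups have 1 library each and borrow the spread of the trained groups. The comparisons share libraries, so they are not independent of each other.

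For training in control mice, 0 of the 4 products were called by limma, against 0 of all 476 sequences (0%), and 0 of 4 had an unadjusted p under 0.05, against 28 of 476 (5.88%). edgeR called 0 sequences and DESeq2 1, which was miR-129-2-3p. miR-204 had a log2 fold change of 0.05 with a 95% interval of -1.35 to 1.44 (limma adjusted p = 0.975). For miR-448-3p it was -0.91 (-3.74 to 1.92, limma adjusted p = 0.777), and for miR-1298 -0.71 (-3.64 to 2.22, limma adjusted p = 0.818). The value of miR-448-3p was -1.83 without library 3, -0.13 without library 5 and -0.41 with the trained groups exchanged. On whole reads DESeq2 and edgeR gave -0.18 and -0.17 for miR-448-3p, -0.019 and -0.014 for miR-1298, and 0.29 each for miR-204. miR-204* had 0.24 (-0.79 to 1.28, limma adjusted p = 0.827), and -0.60 with the trained groups exchanged. By the labels, the value of the non-trained control library fell inside the range of the trained control libraries for all 4 products, whereas the groups did not overlap for 55.7% of all tested sequences. With the groups exchanged, miR-204* would be at 16.61 and 7.39 RPM in trained control, and the non-trained control library, at 17.1 RPM, lies above both. The median of the 4 products was -0.33 and that of all tested sequences -0.09.

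For training in NIPP1* mice, 0 of 4 were called by limma, against 0 of 476 (0%), and 0 of 4 had an unadjusted p under 0.05, against 21 of 476 (4.41%). edgeR called 0 sequences and DESeq2 2, miR-136-5p and miR-146a-5p. miR-204* was at 16.61 and 7.39 RPM after training and at 23.04 RPM without it, a log2 fold change of -1.02 (-2.12 to 0.08, limma adjusted p = 0.973). The value was -1.58 without library 6 (limma adjusted p = 0.942), -0.46 without library 7 and -0.18 with the trained groups exchanged. By the labels it was the 1 product of 4 whose groups did not overlap, against 70.2% of all tested sequences. With the groups exchanged it overlaps too, at 16.24 to 23.53 RPM after training. The other 3 had log2 fold changes of -0.30 (-1.78 to 1.18) for miR-204, -0.60 (-3.596 to 2.40) for miR-448-3p and -0.66 (-3.77 to 2.44) for miR-1298, each with a limma adjusted p of 0.999. Their intervals leave room for changes in either direction. DESeq2 and edgeR gave -0.35 and -0.37 for miR-448-3p and -0.27 and -0.29 for miR-1298, and exchanging the trained groups gave -1.10 for miR-448-3p. The median of the 4 products was -0.63 and that of all tested sequences -0.03.

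For trained NIPP1* against trained control mice, 0 of 4 were called by limma, against 0 of 476 (0%), with 0 calls by edgeR and 1 by DESeq2, miR-344d-3-5p. miR-204* was lower in trained NIPP1* libraries, at 12 ± 6.52 RPM (SD, n = 2) against 20.6 ± 3.85 RPM (SD, n = 3), with a log2 fold change of -0.84 (-1.66 to -0.02, limma unadjusted p = 0.0454, adjusted p = 0.639). It was the 1 of 4 with an unadjusted p under 0.05, against 34 of 476 (7.14%). Without library 7, the library with 74 reads, it was -0.29 (limma adjusted p = 0.994), and without library 6 it was -1.40 (limma adjusted p = 0.799). With the trained groups exchanged, the same difference is 0.84, higher in trained NIPP1* mice. The log2 fold changes of the other 3 were 0.08 (-1.02 to 1.19, limma adjusted p = 0.973) for miR-204, 0.51 (-1.73 to 2.74, limma adjusted p = 0.898) for miR-448-3p and 0.23 (-2.08 to 2.55, limma adjusted p = 0.973) for miR-1298. Exchanging the trained groups turns these to -0.084, -0.51 and -0.23, and DESeq2 gave -0.054, 0.023 and -0.061. The groups of all 4 products overlapped, whereas those of 26.5% of all tested sequences did not. The median of the 4 products was 0.16 and that of all tested sequences 0.04.

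For all 5 trained libraries against both non-trained libraries, a comparison that is the same under both assignments, 0 of 4 were called by limma, against 0 of 476 (0%), and 0 of 4 had an unadjusted p under 0.05, against 26 of 476 (5.46%). edgeR called 0 sequences and DESeq2 1, miR-129-2-3p. The log2 fold changes were -0.13 (-1.005 to 0.74) for miR-204, -0.30 (-1.18 to 0.58) for miR-204*, -0.81 (-2.56 to 0.95) for miR-448-3p and -0.71 (-2.50 to 1.08) for miR-1298, with limma adjusted p-values between 0.892 and 0.983. Leaving out a library gave -0.36 to 0.080, -0.51 to -0.037, -1.21 to -0.36 and -1.13 to -0.30 for the same products. DESeq2 gave 0.038, -0.15, -0.27 and -0.14. Both non-trained libraries lay within the range of the trained libraries for each product, whereas the groups did not overlap for 11.6% of all tested sequences. The median of the 4 products was -0.51 and that of all tested sequences -0.06.

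The training effect in NIPP1* mice minus that in control mice also gave 0 of 4 calls by limma, against 0 of 476 (0%), and 0 of 4 with an unadjusted p under 0.05, against 37 of 476 (7.77%). edgeR called 0 sequences and DESeq2 2, miR-136-5p and miR-344d-3-5p. miR-204* had a difference of -1.26 (-2.78 to 0.25, limma adjusted p = 0.717), and 0.42 with the trained groups exchanged. Leaving out a library gave -1.82 (without library 6) to -0.70 (without library 7). The differences of miR-204 (-0.34), miR-448-3p (0.32) and miR-1298 (0.05) had limma adjusted p-values between 0.955 and 0.995. With the groups exchanged they are -0.51, -0.70 and -0.42, which turns miR-448-3p and miR-1298, as DESeq2 does (-0.17 and -0.25). The median of the 4 products was -0.15 and that of all tested sequences 0.03.

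**Figure D5:**
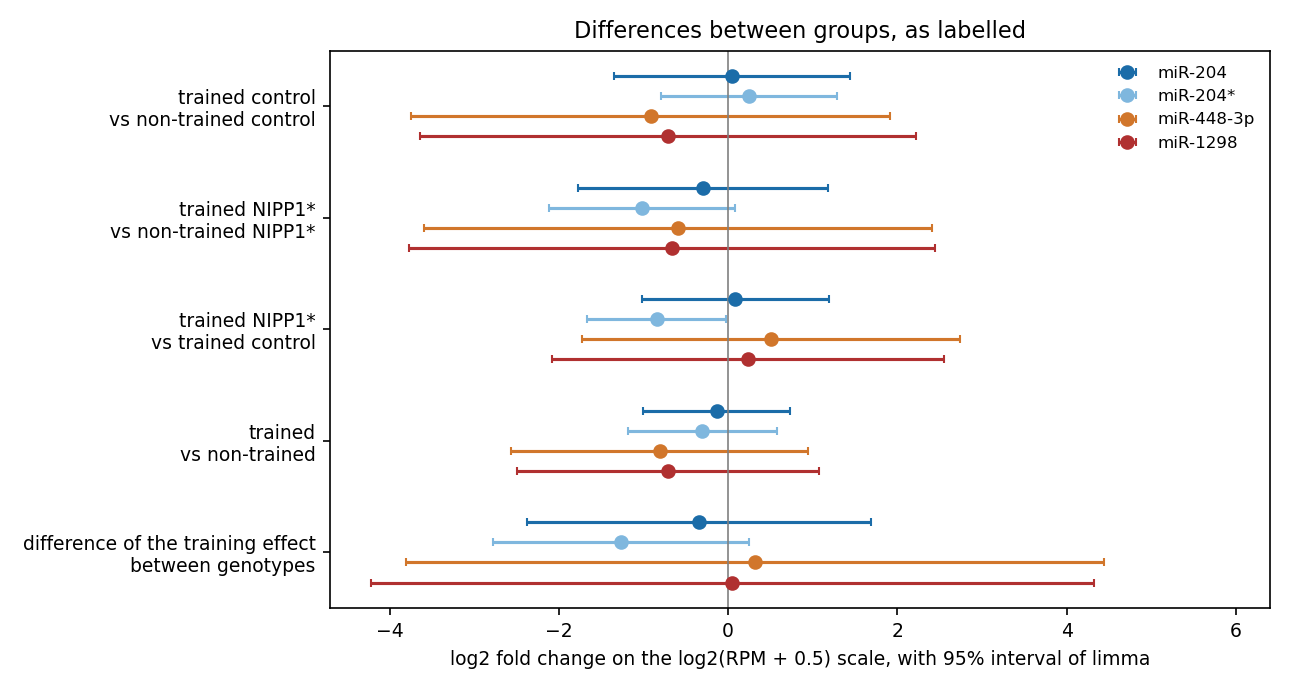
log2 fold change on the log2(RPM + 0.5) scale (horizontal axis) of the 4 tested products in each comparison, by the labels; points are limma estimates and bars their 95% intervals. All but one interval include 0, and that of miR-204* in trained NIPP1* against trained control ends at -0.02.

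The non-trained libraries, 1 per genotype, were compared by their ratio and no test was run. The 4 products had higher values in the NIPP1* library. The median size of the log2 ratio was 0.15 over the 322 sequences with a mean of at least 100 reads. The log2 ratio of the NIPP1* to the control library was 0.43 for miR-204 (exact 95% interval 0.38 to 0.48), larger in size than for 91.3% of these sequences, and 0.43 for miR-204* (0.11 to 0.75). It was 0.19 for miR-448-3p (0.06 to 0.32) and 0.19 for miR-1298 (0.13 to 0.24). None of the 4 reached a ratio of 1 in either direction, as 3 of the 322 sequences with a mean of at least 100 reads did (0.932%), or 2.9% of the 482 with a mean of at least 10 reads. The opposite arms in Htr2c had ratios of -0.37 for miR-448-5p (-0.68 to -0.06) and -0.11 for miR-1298* (-0.25 to 0.02). For scale, library 3 and library 5, replicates by their labels, differed more for miR-204, miR-448-3p and miR-1298 than the non-trained libraries did.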

How the data were processed

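Small RNA libraries of hippocampus were prepared with the TruSeq Small RNA Kit. Per the file headers, the deposited values are of reads of 19 to 26 nt mapped to mm9 (ncPRO-seq and Bowtie; the submitters' notes also name CASAVA 1.7.0 and bedtools). Per mature locus, the authors deposited its reads as a percent of all miRNA reads in the library. The authors also deposited comparison tables, whose signal columns are group means of size-factor normalized reads. The trained-group means were used here to check the assignment of libraries. For products of these hairpins, the columns of the non-trained groups were checked against the reads of libraries 1 and 2, and they matched. miR-204 and miR-1298 were exempt from that check for their many reads. The fold changes, p-values and residual variances of these tables, and 2 other columns of single-library values, were not used.

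Percentages were converted to RPM. Low values step by the worth of 1 read, which gave back whole reads (100% of values up to 100 reads came out whole in each library, within 0.0372 to 0.0511 of a read). The 806 loci gave 756 sequences, loci with the same sequence being averaged, and names came from RefSeq for 649 of them, from the hairpin for 91 and not at all for 16. Sequences with a mean of at least 10 reads were tested with limma 3.58.1 (R 4.3.3) on log2(RPM + 0.5), with an intensity trend and a model of the 4 groups over all 7 libraries (2 groups for trained against non-trained), at an adjusted p of 0.05. The methods name a Wilcoxon test. With 1 library per non-trained group and few trained ones, its 2-sided p cannot fall under 0.05 in these comparisons. Alternatives were edgeR 4.0.16 (quasi-likelihood) and DESeq2 1.42.0 (Wald) on recovered reads, TMM scaling, other filters and pseudocounts, the exchanged trained groups, models of only the libraries compared, and leaving out each library. The limma step was tested on simulated data. Figures and intervals were made with Python 3.11.15, scipy 1.17.1 and matplotlib 3.10.9.

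The members and the marker lists were chosen with earlier results of these data known. Named were the members, every other product of the hairpins in Trpm3, Trpm1 and Htr2c, the list miRNAs by level and spread, and for each tested member the 3 miRNAs outside the members with the highest Pearson r. The miRNAs called by DESeq2 were named after their values were seen.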

Additional observations from a re-analysis of the deposited data

Results flagged for a closer look

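In the trained libraries, miR-211 had 0 reads in library 4 and 2 reads in each of the other 4, which set library 4 apart from the rest of its 5 by the gap to its nearest neighbour. Chance can also flag a group, at a rate that is not known for so few reads, and a difference of 2 reads is within counting error.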

How the results depend on the processing

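Of 296 fitted values of the 4 products under alternatives, 0 had an adjusted p under 0.05 (lowest 0.227) and 41 changed sign. limma called 0 sequences in each comparison under every other limma setting, edgeR likewise, while DESeq2 called 1, 2, 1, 2 and 1 (training in control, training in NIPP1*, trained genotypes, difference of training effects, all trained against non-trained), none of them one of the 4 products. The cause was not tested. Lowering the minimum to 10 reads took the non-trained count past a log2 ratio of 1 from 3 to 14, with more sequences of few reads counted. The signs that turned were, with the trained groups exchanged, miR-204* in control training (-0.60), the trained genotype contrast of miR-204 (-0.084), miR-204* (0.84), miR-448-3p (-0.51) and miR-1298 (-0.23), and the difference of training effects of miR-204* (0.42), miR-448-3p (-0.70) and miR-1298 (-0.42). With DESeq2 and edgeR they were the trained genotype contrast of miR-204 (-0.054 and -0.082) and miR-1298 (-0.061 and -0.096), with edgeR that of miR-448-3p (-0.014), the difference of training effects of miR-448-3p (-0.17 and -0.20) and miR-1298 (-0.25 and -0.28), and miR-204 in all trained against non-trained (0.038 and 0.032). TMM scaling turned the difference of miR-1298 (-0.021).

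Leaving out each library in turn gave, for control training, -0.41 to 0.35 for miR-204 and -1.60 to 0.057 for miR-1298. For NIPP1* training it gave -0.73 to 0.13 for miR-204, -1.39 to 0.20 for miR-448-3p and -1.72 to 0.39 for miR-1298. For the trained genotypes it gave -0.34 to 0.54 for miR-204, -0.28 to 1.43 for miR-448-3p and -0.82 to 1.29 for miR-1298. For the difference it gave -0.77 to 0.11, -0.47 to 1.24 and -1.01 to 1.10 for the same products, and for all trained against non-trained -0.36 to 0.080 for miR-204. Leaving out a group's only library gives no value for its contrasts. Without library 3, the sequences with an unadjusted p under 0.05 rose from 28 to 108 in control training, from 34 to 113 between the trained genotypes, from 37 to 85 for the difference, from 21 to 37 in NIPP1* training and from 26 to 37 for all trained against non-trained, with 0 calls. Without each other library that entered these numbers they were 6 (all trained against non-trained, without library 1) to 34, with 10 in NIPP1* training without library 6. The miR-204 hairpin has 1 locus, so no other value by locus exists. No paired analysis was possible because the labels carry no replicate numbers. Depth limits miR-211, with at most 2 reads a library.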
